A study of Arabidopsis thaliana with 12 samples.

Results

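All but 3 of the genes described here lie on the large stretch of mitochondrial DNA in the nuclear genome of Arabidopsis thaliana. It sits near the centromere of chromosome 2. The other 3 lie beyond its end, and all are called insert genes here. The genes were chosen by position alone. Every gene of the count tables on chromosome 2 whose smallest start lay from base 3230000 to base 3520000 (TAIR10) was taken. This gave 128 of the 32743 genes. The members comprised 95 protein-coding genes, 23 tRNA genes, 9 long non-coding RNA genes and 1 microRNA gene, and their starts ran from 3239693 to 3517383. All 128 were found by locus tag in the RefSeq annotation, with the same span.

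Plant nuclear genomes carry copies of organelle DNA that moved to the nucleus during evolution, and the copy on chromosome 2 is young enough to be almost the same, base for base, as the mitochondrial chromosome it came from. The mitochondrial chromosome encodes subunits of the respiratory chain and of ATP synthase, proteins that attach haem to cytochrome c, ribosomal proteins, ribosomal RNAs and tRNAs. A short read from such a transcript can therefore fit the nuclear and the mitochondrial locus equally well.

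RNA was sequenced from leaves of vegetative plants aged 35 days, grown in long days without treatment. The plants were wild type (WT, ecotype Columbia-0) or homozygous for a T-DNA insertion in OTP90 (AT1G25360), a nuclear gene for a pentatricopeptide repeat protein with a role in RNA editing, and otp90 was represented by a single insertion line. The labels name a Mito and a Total extract for each genotype without saying how the Mito extract was made, so that Mito and Total are used here as names of libraries. The series design gives 3 biological replicates for each of the 4 groups, Mito WT, Mito otp90, Total WT and Total otp90, and nothing says how many plants each replicate holds.

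Libraries held from 24660745 to 60464017 counts, with 24660745 to 32418348 in Mito and 49434596 to 60464017 in Total. Genes on the mitochondrial chromosome (Mt) took 2.89 to 5.16% of the counts of a Mito library and 0.959 to 1.19% of those of a Total library. Genes of the plastid chromosome (Pt) took 42.7 to 48.9% in Mito and 56.7 to 62.2% in Total. The labelled tissue was checked with leaf, root and flower markers: the 4 leaf markers summed to 12717 to 17435 CPM (counts scaled to a common library size), the 4 root markers to 0.0830 to 0.608 CPM with RHD6 at 0, and the 3 flower markers to 0.382 to 1.52 CPM. OTP90 itself had 6 to 20 counts per library and its values in otp90 and WT overlapped in both extracts, so that its count does not check the genotype labels.

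To see how closely the insert genes resemble the mitochondrial chromosome, the sequence around their exons was read in windows of 75 bases, the length of the sequenced reads, and each window was looked up in the mitochondrial chromosome of the same build. At least 50% of the windows were identical to a mitochondrial sequence in 124 of the 128 members, and all windows were identical in 69. One further member, the non-coding RNA AT2G05395, shared 15.9% of its windows. ABCC13 (AT2G07680), which encodes a transporter of the ATP-binding cassette family, the non-coding RNA AT2G05405 and the microRNA gene MIR5646 (AT2G05415) shared no window. These 3 lie at the right-hand end of the interval, beyond the last shared window, which ended at 3509765. Between the first and the last shared window there were 270728 bases, 94.1% of all windows in them were identical to mitochondrial sequence, and 98.4% of all nuclear windows shared with the mitochondrial chromosome fell in the interval.

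A mitochondrial partner was given to each member that shared windows, on the same strand, with an exon of an annotated Mt gene, the partner being the Mt gene with the most shared windows. This gave 49 members with a partner and 39 of the 62 Mt genes as partners, while 23 Mt genes were no partner. The other 75 mostly shared members shared no window with an Mt exon on their strand. Among the 125 members with any shared window, these lay mainly in exons of Mt genes in 30 members, in an intron in 1 (AT2G05215, inside nad2), opposite an Mt exon in 3 and outside annotated Mt genes in 91. Most insert genes are thus annotated over mitochondrial sequence for which the Mt annotation holds no gene.

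Where a member and its partner were identical over their whole length and surroundings, the counts were often identical too. In 20 of 48 pairs with counts, all windows of both genes were shared, and in 12 of these 20 the count of the nuclear gene equalled that of the mitochondrial gene in each of the 12 libraries. The 12 pairs held 3 protein-coding genes and 9 tRNA genes. AT2G07741, the copy of atp6 (subunit a of ATP synthase), and atp6 itself had 579409 counts each over the 12 libraries. AT2G07751 and nad3 (a complex I subunit) had 37615 counts each, and AT2G07675 and rps12 (a protein of the small ribosomal subunit) had 37700 counts each. A count table cannot tell apart from which of the loci such reads came. AT2G07707, the copy of atp8 (a further ATP synthase subunit), differed from atp8 by 1 count in 3 of the 12 libraries, with totals of 364515 and 364516.

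The other 8 fully shared pairs had unequal counts. A read that overlaps 2 genes at 1 place was counted for neither, so the share of a gene's windows that also touch a second gene is given beside these values, and its part in the difference was not tested. The widest difference was at the mitochondrial serine tRNA trnS(TGA), which has 2 nuclear copies, AT2G07766 and AT2G07793. These genes are named here because of their values. AT2G07766 lies 45 bases behind AT2G07741, as trnS(TGA) lies behind atp6 on the mitochondrial chromosome. The stretch from the end of AT2G07741 through AT2G07766 is printed because it reads the same at the 3 loci compared (TAIR10.1, plus strand, chr2:3503447-3503608 and chr2:3369279-3369440, and bases 50551 to 50712 of the mitochondrial chromosome), with the tRNA gene in capitals.
End of AT2G07741 to AT2G07766: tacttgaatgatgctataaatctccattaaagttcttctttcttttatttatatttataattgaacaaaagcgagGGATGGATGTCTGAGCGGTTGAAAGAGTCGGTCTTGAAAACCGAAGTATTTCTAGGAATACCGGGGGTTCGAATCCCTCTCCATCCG
The 2 nuclear loci were identical over 638 bases up to the end of the tRNA gene, but no gene is annotated on the same strand within 2692 bases before AT2G07793. Of the windows of AT2G07766, 18.0% also touched a second gene, against 0 for AT2G07793. AT2G07766 and trnS(TGA) had 476 counts each, equal in all 12 libraries, whereas AT2G07793 had 3679. The mitochondrial chromosome holds a second trnS(TGA) gene, which also had 476 counts and shared all of its windows with both nuclear genes. By library, the counts of AT2G07793 were 590, 394 and 342 for Mito WT, against 556, 310 and 378 for Mito otp90, which overlapped. Total held 246, 196 and 215 counts of it in WT against 126, 165 and 161 in otp90, which did not overlap. Its count was 4.740 to 19.720 times that of trnS(TGA), the widest relation to a partner among the fully shared pairs.

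Other fully shared tRNA genes fell below their partners. AT2G07754 had 0.256 to 0.326 times the counts of trnS(GCT), and 80.9% of its windows touched another nuclear gene, against 0 for the mitochondrial gene. AT2G07743 had 0.191 to 0.692 times the counts of trnD(GTC), from totals of 51 and 149 counts, with 39.2% of its windows on a second gene. Among protein-coding genes the gap was small: ABCI5 (AT2G07771), a copy of ccmC, which belongs to the cytochrome c maturation machinery, had 0.966 to 0.973 times the counts of ccmC, with 5.21% of its windows on a second gene.

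Of the 28 protein-coding members with a partner, 19 held at least 50% of the partner's windows. In 5 of these 19 all windows of both genes were shared, so that mostly the same reads were counted. Of the other 14, annotated longer or shorter than the mitochondrial gene, 8 had a nearly fixed ratio to it, with the highest value of the 12 libraries less than 1.1 times the lowest, and 6 did not. AT2G07687, the copy of cox3 (subunit 3 of cytochrome c oxidase), held all windows of cox3, which made up 81.3% of its own, and had 1.235 to 1.266 times its counts. AT2G07727, with the sequence of cob (cytochrome b of complex III), had 1.567 to 1.642 times the counts of cob, whose windows were 37.9% of its own. AT2G07671 had 1.728 to 1.807 times the counts of atp9 (the ring subunit of ATP synthase), and AT2G07698 had 1.138 to 1.167 times those of atp1 (the alpha subunit).

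Ribosomal protein genes were found in both classes. AT2G07734, with the sequence of rps4 of the small subunit, had 1.121 to 1.150 times the counts of rps4, and AT2G07725 had 1.736 to 1.798 times those of rpl5 of the large subunit. AT2G07715, with the sequence of rpl2 of the large subunit, varied more, at 0.735 to 0.828 times the counts of rpl2, and its otp90 libraries did not overlap between Mito (0.793 to 0.813) and Total (0.735 to 0.756). AT2G07689, which holds 56.2% of the windows of nad2 (complex I), was lower than its partner, at 0.477 to 0.492 times. The widest ratio of the 19 was that of AT2G07706, an uncharacterized gene that runs over the isoleucine tRNA gene of the mitochondrial chromosome, with 12.060 to 19.767 times its 550 counts.

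**Figure D1:**
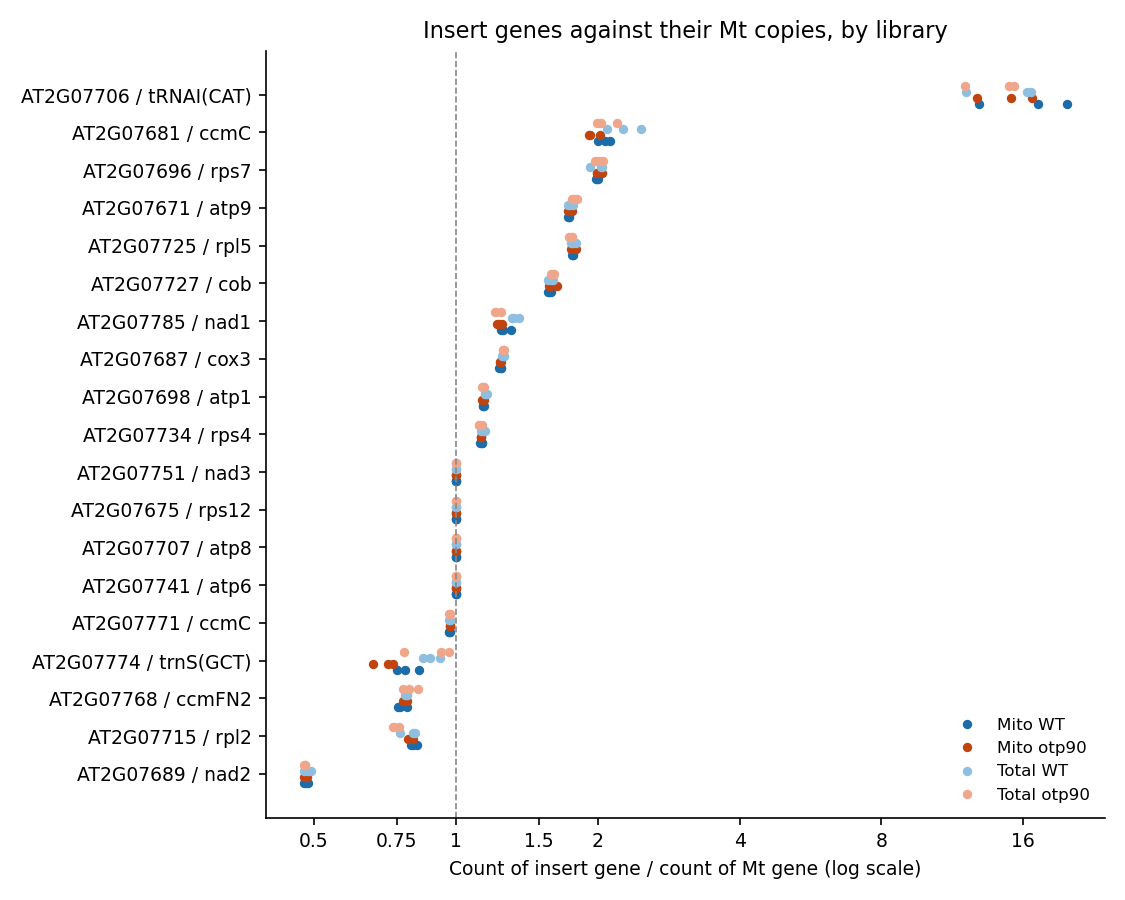
Count of each insert gene divided by the count of its mitochondrial (Mt) gene, on a log scale, for the 19 protein-coding members that hold at least 50% of the Mt gene's windows. Each dot is 1 of 12 libraries, coloured by group, and the dashed line marks equal counts: the copies of atp6, nad3, rps12 and atp8 sit on it in every library, and most other genes form a tight column, such as cox3 at 1.235 to 1.266.

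Over all 48 pairs, the highest ratio was less than 1.1 times the lowest in 22, from 1.1 to 1.5 times in 12, and at least 1.5 times in 14. Mito was compared with Total by an exact two-sided permutation test of the log2 ratio (0.5 added to each count), for which 3 against 3 libraries cannot give a p under 0.1. That value was reached by 7 pairs in WT and by 6 in otp90, and the smallest p adjusted over the 48 pairs was 0.686 in WT and 0.8 in otp90. For cox3 the 3 Mito and the 3 Total libraries did not overlap in either genotype, at a mean ratio of 1.243 ± 0.007 (SD, n = 3) in Mito WT and 1.262 ± 0.006 in Total WT.

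Insert genes were not exact copies throughout, and 117 of 128 had a best alignment of at least 99% identity with the mitochondrial chromosome. ABCI4 (AT2G07681), which like ABCI5 resembles ccmC, differs from the mitochondrial sequence by A779G, C992G and A1757G, with the nuclear base first and positions counted from 1 at the 5′ end of the merged exons. The last of these lies in the sequence of ccmC, where ABCI5 holds the mitochondrial base, and is shown in capitals in 41 bases (TAIR10.1, plus strand, chr2:3290760-3290800, and bases 308827 to 308867 of the mitochondrial chromosome). ABCI4, which is longer than ccmC, held 73.8% of the windows of ccmC and had 1.921 to 2.475 times its counts.
ABCI4, nuclear: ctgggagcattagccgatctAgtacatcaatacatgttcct
ccmC, mitochondrial: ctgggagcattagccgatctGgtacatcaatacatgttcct
AT2G07708, an uncharacterized gene with no Mt gene on its strand, is the example of a member over unannotated mitochondrial sequence. Its counterpart on the mitochondrial chromosome starts 82 bases downstream of atp8, and the copies differ by T134G (plus strand of chr2:3386964-3387004, and minus strand of bases 246780 to 246820 of the mitochondrial chromosome).
AT2G07708, nuclear: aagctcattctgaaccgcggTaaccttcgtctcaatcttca
AT2G07708, mitochondrial: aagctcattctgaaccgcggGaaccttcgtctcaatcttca

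Levels differed widely between members. The mean over the 12 libraries, in CPM scaled by TMM (trimmed mean of M-values), exceeded 100 in 21 members, lay from 10 to 100 in 19 and from 1 to 10 in 35, and was at most 1 in 53. The median was 12.4 CPM over members with a partner and 0.844 CPM over those without. The genes of ATP synthase were high, with AT2G07698 (atp1) at 3771, AT2G07671 (atp9) at 2499, AT2G07741 (atp6) at 1268 and AT2G07707 (atp8) at 808 CPM. AT2G07727 (cob) stood at 1559 and AT2G07687 (cox3) at 914 CPM. The 5 ribosomal protein copies ranged from 69.8 to 452 CPM, the 3 complex I copies from 82.1 to 212 CPM and the 3 genes of cytochrome c maturation from 29.8 to 223 CPM. The 18 tRNA genes with a partner of which they hold at least 50% ranged from 0.0864 to 9.46 CPM. These values are not divided by gene length. Counts were 0 in all libraries for 3 members, AT2G05405, MIR5646 and the tRNA gene AT2G05355. A count of 0 allows up to 3 counts per library, which is 0.0925 to 0.122 CPM in Mito and 0.0496 to 0.0607 CPM in Total, for counting error only, since reads carried no molecular identifiers. For AT2G05355 no such limit follows, because all of its windows touched a second gene, and reads over 2 genes were not counted.

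The whole insert took 2.68 to 3.73% of the counts of a Mito library and 1.34 to 1.55% of those of a Total library. Set against chromosome Mt, its counts per 100 Mt counts came to 86.8 ± 9.96 for Mito WT (SD, n = 3) and 75.8 ± 6.60 for Mito otp90, but to 146 ± 17.9 for Total WT and 143 ± 5.04 for Total otp90. A single gene, AT2G07732, held at least 18.5% of the members' counts in every library. Without it, in an alternative chosen after seeing the data, the values of the 4 groups in this order were 64.7 ± 4.17, 59.5 ± 3.45, 61.8 ± 1.16 and 65.6 ± 1.59. The library values of Mito WT and Total WT then overlapped, while those of Mito otp90 lay below those of Total otp90. For the 69 members whose windows were all shared, the values were 25.6 ± 1.40, 22.9 ± 1.32, 26.3 ± 0.889 and 26.9 ± 0.273. The Mt counts in all these ratios include the ribosomal RNA genes rrn26 and rrn18. Members that share windows with rrn26 hold 0.401% of its windows each. Its counts were 109329, 209572 and 193439 in Mito otp90 against 43674, 19535 and 35455 in Total otp90. How far these RNA genes set the differences between groups was not tested.

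AT2G07732 is a fragment of rbcL, the plastid gene for the large subunit of Rubisco, and AT2G07739 a fragment of the plastid gene ycf1. Plant mitochondrial chromosomes carry pieces of plastid DNA. Both fragments are found in the mitochondrial chromosome as well, so that copies exist in all 3 genomes. AT2G07732 aligned to the plastid chromosome over 573 bases with 96.9% identity, and 59 of its windows were identical to plastid sequence, in stretches of 91, 110 and 80 bases. The longest stretch is shown with the 20 bases before it, because it is where reads of rbcL fit the insert without a mismatch, and the capital marks the single position at which the 3 copies are not the same (minus strand of chr2:3468439-3468568, plus strand of bases 55668 to 55797 of the plastid and of bases 165153 to 165282 of the mitochondrial chromosome, C351G between nuclear and mitochondrial copy).
AT2G07732, nuclear: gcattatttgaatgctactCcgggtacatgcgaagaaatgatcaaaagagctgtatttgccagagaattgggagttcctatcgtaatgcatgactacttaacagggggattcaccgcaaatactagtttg
rbcL, plastid: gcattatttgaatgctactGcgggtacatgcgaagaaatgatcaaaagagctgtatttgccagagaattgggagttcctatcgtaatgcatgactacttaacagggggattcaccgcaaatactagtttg
rbcL fragment, mitochondrial: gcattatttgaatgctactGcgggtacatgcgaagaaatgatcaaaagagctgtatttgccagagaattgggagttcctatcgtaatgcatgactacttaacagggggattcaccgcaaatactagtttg

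AT2G07732 was the highest of all members, at a mean of 8162 CPM. Its Mito libraries gave 6832, 6147 and 5538 CPM (WT) and 7843, 5828 and 6796 CPM (otp90), its Total libraries 11604, 7672 and 11135 CPM (WT) and 10735, 8984 and 8825 CPM (otp90). In this TMM scaling every Total library was above every Mito library of the same genotype, which is the reverse of the order of the mitochondrial copies. The separation depended on the scaling: with library size alone the gene was called in neither genotype, as given below. Its counts followed rbcL closely: they were 5.63 to 6.98% of those of rbcL in all 12 libraries, from totals of 4090494 and 65573411 counts. AT2G07739 shared 140 windows with ycf1 and had 15.5 to 21.0% of its counts.

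For AT2G07739 the Mito libraries gave 21.9, 18.6 and 20.2 CPM (WT) and 17.6, 23.6 and 23.5 CPM (otp90), the Total libraries 17.3, 22.3 and 24.2 CPM (WT) and 21.2, 21.3 and 16.2 CPM (otp90), so that all groups overlapped. For ABCC13, with no mitochondrial sequence, the Mito libraries gave 371, 413 and 377 counts (WT) and 345, 428 and 336 counts (otp90), the Total libraries 349, 399 and 416 counts (WT) and 389, 584 and 478 counts (otp90). In CPM these ran from 9.71 to 12.0 in Mito and from 8.02 to 11.4 in Total, and the libraries of the extracts overlapped in both genotypes. For the atp6 copy AT2G07741 the Mito libraries gave 1650, 1388 and 1895 CPM (WT) and 1943, 1925 and 2119 CPM (otp90), the Total libraries 702, 740 and 722 CPM (WT) and 702, 714 and 711 CPM (otp90). Here the extracts lay apart, as they did for most members.

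**Figure D2:**
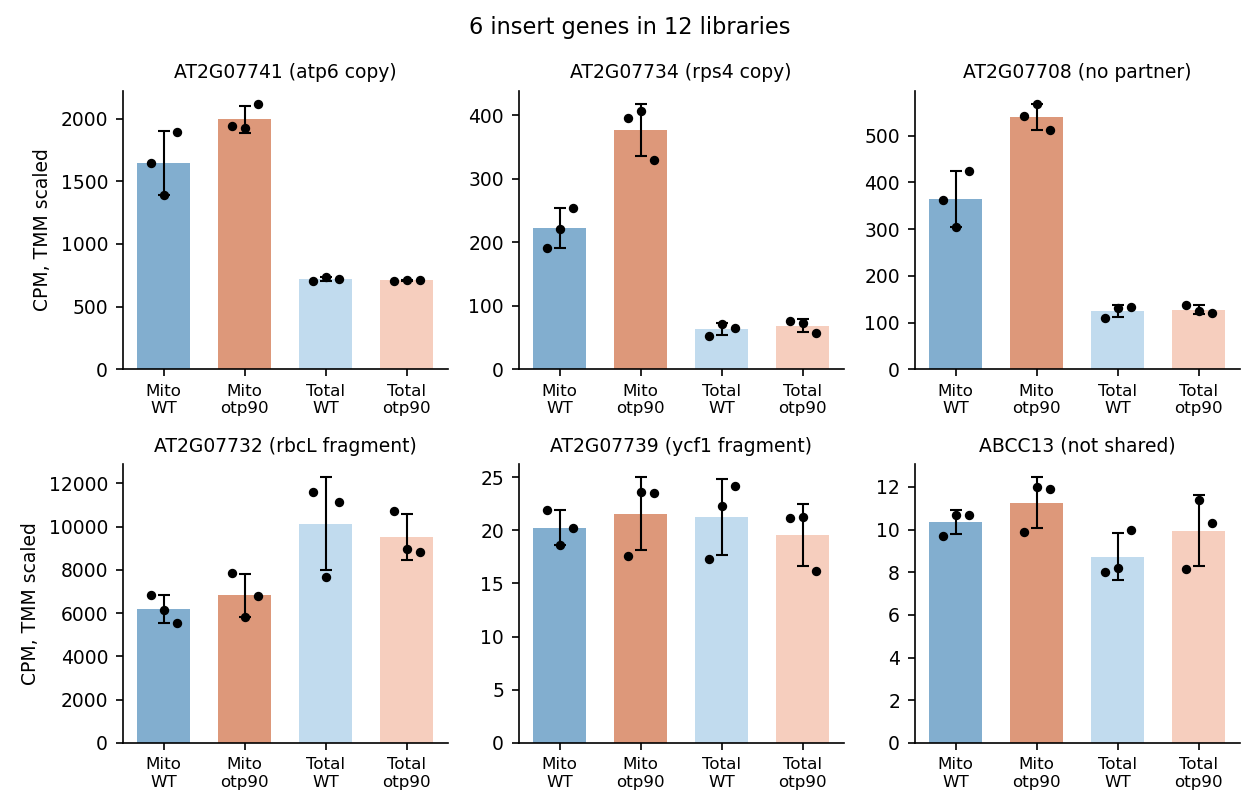
Level of 6 insert genes in 12 libraries, in CPM scaled by TMM. Bars are means of 3 libraries, error bars their SD and dots the libraries. The copies of atp6 and rps4 and the gene AT2G07708 are higher in Mito than in Total. In this scaling the rbcL fragment AT2G07732 is higher in Total. AT2G07739 and ABCC13 lie at 16.2 to 24.2 and 8.02 to 12.0 CPM with overlapping groups.

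Mito was compared with Total to see whether the insert moves with chromosome Mt between extracts. In both genotypes almost all insert genes were higher in Mito, by about the same amount as Mt genes. Counts were tested with edgeR's quasi-likelihood test on every gene above 1 CPM in 3 or more of the 6 libraries, with Benjamini-Hochberg adjustment over all genes tested. In WT, 76 members were tested, of which 72 rose in Mito and 1 fell, while 22.8% of all genes tested rose and 20.9% fell. In otp90, 92 members were tested, of which 88 rose and 1 fell, against 24.8% and 22.3% of all genes. The median log2 fold change of the tested members was 1.29 in WT and 1.74 in otp90, beside 1.37 and 1.74 for Mt genes, -1.24 and -1.01 for Pt genes, and 0.00 and 0.02 for all genes.

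The filter on low values passed 13 of these members in WT and 29 in otp90 although no Total library had more than 1 CPM, so that these could enter only by being higher in Mito. A count free of the filter was therefore also made. All 3 Mito libraries lay above all 3 Total libraries in CPM in 105 of the 125 members with at least 1 count in WT, against 23.3% of all such genes, and in 117 of 125 in otp90, against 22.8%. On chromosome 2, 4 genes within 200000 bases of the interval were tested, and 2 rose and 2 fell in each genotype. In such bulk libraries, fewer cells of a type and less RNA per cell cannot be told apart, and the nuclear and the mitochondrial locus are counted from the same reads.

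By role, the 4 copies of ATP synthase genes rose in Mito by log2 fold changes of 1.11 to 1.45 in WT and 1.49 to 1.80 in otp90. The 3 copies of complex I genes rose by 1.21 to 1.40 and 1.38 to 1.73. AT2G07727 (cob) rose by 1.45 ± 0.14 (SE, adjusted p = 0.000731, edgeR) in WT and 1.68 ± 0.10 in otp90, and AT2G07687 (cox3) by 1.43 ± 0.14 and 1.72 ± 0.09. The 3 genes of cytochrome c maturation rose by 1.52 to 1.65 in WT and 1.92 to 2.26 in otp90.

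The 5 ribosomal protein copies spread most, from 0.86 for AT2G07675 (rps12) to 1.83 for AT2G07734 (rps4) in WT, and from 0.92 to 2.50 for the same genes in otp90. AT2G07734 had 191, 221 and 254 CPM in Mito WT and 52.9, 71.5 and 65.1 in Total WT, and 395, 406 and 330 against 75.7, 72.8 and 57.1 in otp90, with no overlap between extracts. Of 12 tRNA members tested in WT all rose, by 0.68 to 1.46, and of 15 tested in otp90, 14 rose, against 22.8% and 24.8% of all genes. However, 5 of these 12 and 7 of these 15 had no Total library above 1 CPM, so that they could enter only by being higher in Mito.

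Members with no partner were also mostly higher in Mito. Of the 38 tested in WT, 34 rose and 1 fell, against 22.8% and 20.9% of all genes. Of the 51 tested in otp90, 48 rose and 1 fell, against 24.8% and 22.3% of all genes. However, 8 of the 38 and 22 of the 51 had no Total library above 1 CPM. Without the filter, all 3 Mito libraries lay above all 3 Total libraries in 60 of the 77 with counts in WT and in 71 of 77 in otp90. Over all genes with counts this held for 23.3% in WT and 22.8% in otp90. AT2G07708 had 362, 305 and 424 CPM in Mito WT and 109, 131 and 133 in Total WT, and rose by 1.56 ± 0.16 (SE, adjusted p = 0.000731, edgeR) in WT and 2.12 ± 0.10 in otp90. The highest values in WT belonged to AT2G07830 (1.88), AT2G07734 (1.83) and AT2G07825 (1.82), and in otp90 to AT2G07626 (2.64), AT2G07676 (2.61) and AT2G07830 (2.58). In otp90, AT2G07626 (0.151 to 0.311 CPM in Total) and AT2G07830 (0.779 to 0.914 CPM in Total) passed the filter through their Mito libraries alone. AT2G07825 and AT2G07830 are uncharacterized genes whose mitochondrial counterparts lie 589 and 2463 bases upstream of rps4, and that of AT2G07676 lies 568 bases upstream of ccmFN2, a cytochrome c maturation gene.

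**Figure D3:**
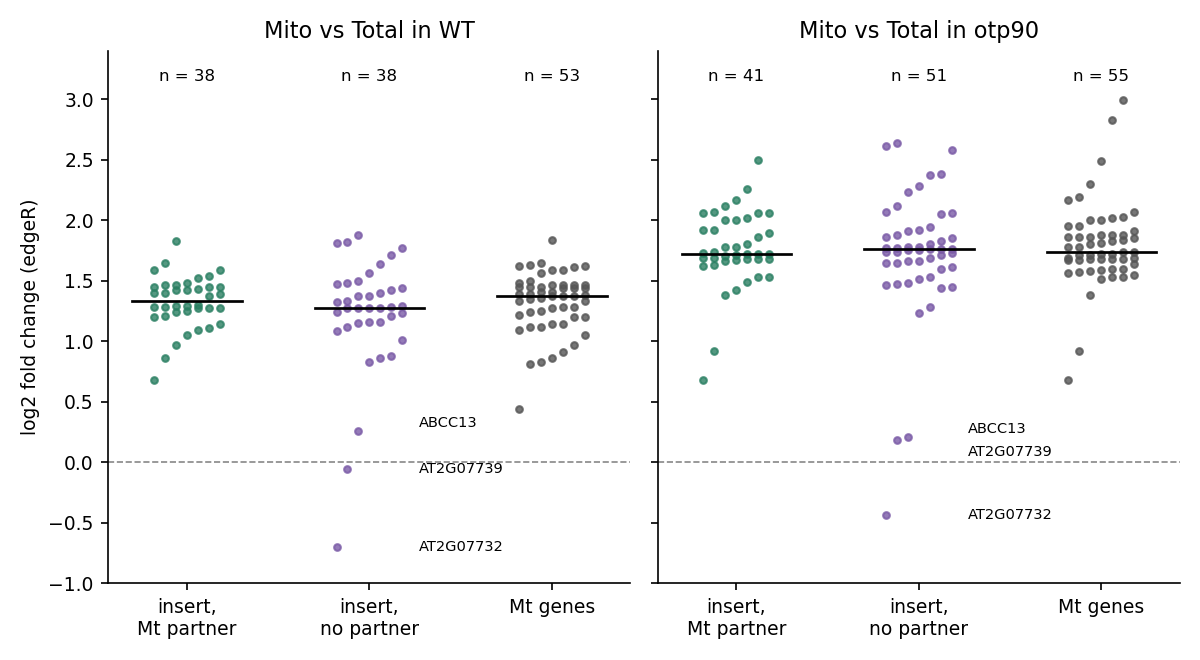
Log2 fold change of Mito against Total (edgeR) for the tested insert genes with an Mt partner, those without one and the genes of chromosome Mt, in WT (left) and otp90 (right). Each dot is a gene and each bar the median of its column: the columns overlap, with medians of 1.28 for members without a partner and 1.37 for Mt genes in WT and of 1.76 and 1.74 in otp90, and AT2G07732, AT2G07739 and ABCC13 lie apart from the other insert genes.

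The member that fell was AT2G07732, by a log2 fold change of -0.70 ± 0.19 (SE, adjusted p = 0.0254, edgeR) in WT and -0.44 ± 0.14 (adjusted p = 0.0347) in otp90. These calls depended on single libraries: in WT the call was lost without any of the libraries except Total WT replicate 2, with log2 fold changes from -0.60 to -0.75, and in otp90 without Mito replicate 2 (-0.31) or 3 (-0.41) or Total replicate 1 (-0.40) or 2 (-0.52). They also ended with library size alone in place of TMM, at -0.20 in WT (adjusted p = 0.161, edgeR) and 0.01 in otp90 (adjusted p = 0.925), and in WT with the replicate block (adjusted p = 0.0777). AT2G07739 had -0.06 ± 0.14 in WT (adjusted p = 0.779, edgeR) and 0.18 ± 0.16 in otp90 (adjusted p = 0.408). ABCC13 had 0.26 ± 0.12 (adjusted p = 0.106, edgeR) and 0.21 ± 0.15 (adjusted p = 0.289).

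Each member was also set beside its partner. Among pairs in which the member holds at least 50% of the partner's windows, the log2 fold changes of member and partner differed by at most 0.1 in 23 of 28 tested pairs in WT and in 28 of 31 in otp90. In 14 of the 28 and 15 of the 31, all windows of both genes were shared. Many of the same reads were then counted for both genes, which limits how far such pairs could differ. The largest gaps over the 28 and the 31 pairs were 0.23 for the glycine tRNA gene AT2G07756 in WT and 0.33 for AT2G07774, an uncharacterized gene over trnS(GCT), in otp90. Among the 7 pairs that share less, 3 were within 0.1 in each genotype, and the gap reached 0.58 in WT and 0.87 in otp90 for AT2G07806, which holds 0.401% of the windows of the ribosomal RNA gene rrn26.

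To ask which members moved differently from the mitochondrial genes, the same tests were run with libraries scaled by TMM over the Mt genes alone. In WT, 3 of 76 members were then higher in Mito and 5 lower, whereas 1.59% of all genes were higher and 86.6% lower. In otp90, 11 of 92 members were higher and 10 lower, against 1.33% and 92.3% of all genes. The total of 8 in WT fell to 3 without Mito WT replicate 1 or Total WT replicate 3 and to 4 without Total WT replicate 1, and the total of 21 in otp90 fell to 12 without Mito otp90 replicate 1. The median of the members was -0.04 in WT and 0.01 in otp90, and that of all genes was -1.31 and -1.72. In 68 of 76 members in WT and 71 of 92 in otp90 the test was not passed.

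In both genotypes 7 members passed, each in the same direction. The rbcL fragment AT2G07732 was lower relative to Mt, at -2.01 ± 0.26 (SE, adjusted p = 1.53e-06, edgeR) in WT and -2.17 ± 0.15 in otp90. The ycf1 fragment AT2G07739 was at -1.37 ± 0.22 and -1.56 ± 0.14, and ABCC13 at -1.05 ± 0.22 and -1.52 ± 0.16. AT2G07675 (rps12), named here because of its values, was at -0.50 ± 0.23 (adjusted p = 0.0440, edgeR) and -0.81 ± 0.10, and rps12 itself has the same counts. The members that were higher were AT2G07734 (rps4), at 0.51 ± 0.23 (adjusted p = 0.0420, edgeR) in WT and 0.77 ± 0.12 in otp90, AT2G07676, at 0.47 ± 0.21 and 0.88 ± 0.13, and AT2G07825, at 0.48 ± 0.22 and 0.65 ± 0.10. Their calls in WT were weak: all 3 were lost with scaling over the Mt genes that are no partner, and without Mito WT replicate 1, Total WT replicate 1 or Total WT replicate 3 no member was called higher. Nor were all 5 lower calls in WT kept, since only 3 members passed without Mito WT replicate 1 or Total WT replicate 3.

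The genotypes were compared within each extract. In Mito, none of the 93 members tested passed in edgeR's quasi-likelihood test, although all 93 had a log2 fold change above 0, with a median of 0.57, and 76 had an unadjusted p under 0.05. Of all genes, 48.7% had a log2 fold change above 0 and 6.96% an unadjusted p under 0.05. More than 1 CPM in all 6 libraries was found in 76 of the 93 members. The rest could pass the filter with the help of higher otp90 libraries, which favours a value above 0 for them. The smallest adjusted p was 0.0551. After adjustment 0.0604% of all genes passed, the median of Mt genes was 0.58 and that of Pt genes 0.03. DESeq2 called 37 of the 93 members higher in otp90, against 0.537% of all genes. In the labels the replicate numbers recur across groups, and in Mito the libraries with the same number deviated together from their group means (correlations of 0.403, 0.386 and 0.107). With the replicate number as a block, edgeR called 42 of 93 members higher, against 0.863% of all genes, together with 32 of 55 Mt genes. Without Mito WT replicate 3, 30 members were called higher in the fit with no block, against 59 of all 16441 genes tested.

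Among the members, ABCI4 had 237, 209 and 299 CPM in Mito WT and 462, 438 and 415 CPM in Mito otp90, which did not overlap, and a log2 fold change of 0.82 ± 0.12 (SE, adjusted p = 0.0553, edgeR), or 0.84 ± 0.10 (adjusted p = 0.00134) with the block. AT2G07734 (rps4) had 0.77 ± 0.12 (adjusted p = 0.0553, edgeR), or 0.77 ± 0.11 (adjusted p = 0.00242) with the block. The 4 copies of ATP synthase genes had 0.28 to 0.44. At the low end stood AT2G07739 with 0.09 ± 0.12, the fully shared tRNA gene AT2G07793 with 0.10 ± 0.23, ABCC13 with 0.12 ± 0.09 and AT2G07732 with 0.15 ± 0.14, which passed in neither fit.

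Relative to the Mt genes, none of the 93 members passed as higher in otp90 within Mito and 4 passed as lower, against 0.0543% and 86.0% of all genes. The 4 were AT2G07739 at -0.47 ± 0.18, ABCC13 at -0.45 ± 0.19, the tRNA gene AT2G07793 at -0.45 ± 0.19 and AT2G07732 at -0.42 ± 0.18 (adjusted p from 0.0137 to 0.0234, edgeR). The count fell to 0 without Mito WT replicate 1 or Mito otp90 replicate 2, to 1 without Mito otp90 replicate 3 and to 2 without Mito otp90 replicate 1, and was 7 without Mito WT replicate 3.

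**Figure D4:**
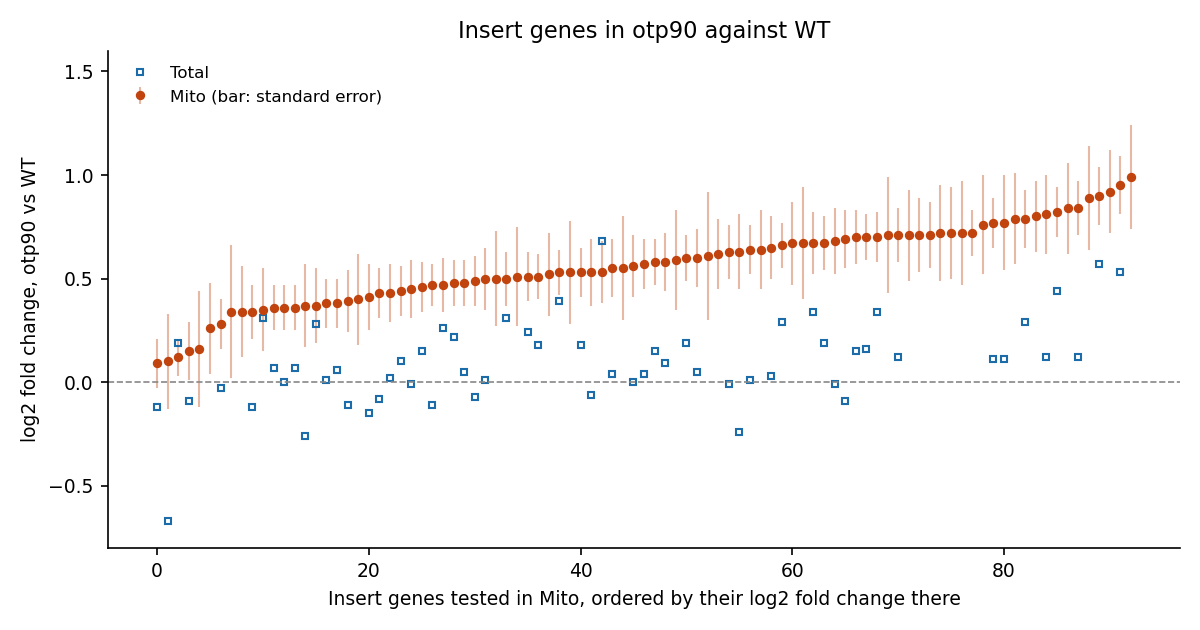
Log2 fold change of otp90 against WT (edgeR) for the 93 insert genes tested in Mito, ordered by that value (filled circles, bars are standard errors), with the same gene in Total where it was tested (open squares). The Mito values run from 0.09 to 0.99, all above 0, whereas the Total values, of which 45 of 62 are above 0, have a median of 0.08.

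In Total, 62 members were tested and none passed, as was the case for 0% of all genes. The median log2 fold change was 0.08, beside 0.17 for Mt genes, 9 members had an unadjusted p under 0.05, against 2.98% of all genes, and DESeq2 called 0. AT2G07734 had 0.11 ± 0.17 and ABCI4 0.44 ± 0.13 (neither passed in edgeR). Whether the genotype effect differed between extracts was tested as an interaction in 1 fit of all 12 libraries. None of 93 members passed, against 0% of all genes, the median was 0.48 and DESeq2 called 0. Of the 93, 87 had an interaction above 0, against 51.1% of all genes, and 36 had an unadjusted p under 0.05, against 5.08% of all genes. Members not among the 62 tested in Total could pass the filter of this fit only with the help of Mito libraries. Where those were mainly the otp90 libraries, an interaction above 0 was favoured. After adjustment the otp90 effect is therefore not shown to differ between the extracts for any single insert gene.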

How the data were processed

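The authors deposited 1 table of raw counts per library. As the methods state, stranded libraries without ribosomal RNA gave single-end reads of 75 bases. STAR mapped them to TAIR10 with the Col-0 mitochondrial chromosome, without introns, and reported all best alignments as primary. Per the file headers, the authors' featureCounts 1.6.3 counted exons by gene on the reverse strand with multi-mapping reads included, so a read was counted at each locus it fitted equally well, while a read over 2 genes at 1 place was left out. Counts of nuclear and mitochondrial copies are therefore not independent.

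The members and gene lists were chosen with earlier results of these data known. Counts were tested with edgeR 4.0.16 in R 4.3.3 (TMM, glmQLFit, glmQLFTest, above 1 CPM in 3 or more libraries of a fit, adjusted p under 0.05 over all genes tested), with DESeq2 1.42.0 as an alternative. SEs were derived from the fitted fold change and its F statistic. The edgeR steps were tested on simulated data with 200 changed genes. Windows were matched exactly in TAIR10.1, and identity came from blastn 2.17.0. No gene of the count tables ended beyond its chromosome in that build, and all 128 members had the same span there. Named genes are the 15 members with the highest mean CPM, those that passed a genotype test (none), the 3 highest and lowest fold changes of Mito against Total per genotype, the 3 unshared members with the highest CPM, and up to 5 members that passed relative to Mt in both genotypes. Others were named after their values were seen. Replicates differed by more than sampling noise, so each library counted once. No column was left out.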

Additional observations from a re-analysis of the deposited data

How the results depend on the processing

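Each library was left out in turn, and normalisation, tool, filter and scaling were changed one at a time. The counts of members passing Mito against Total stayed within 1.5 times the main counts under every alternative, at 57 to 74 in WT and 60 to 89 in otp90 with a library left out. For otp90 against WT in Mito, 0 passed in the main fit, 4 with RLE size factors, 37 with DESeq2, 29 without a filter and 42 with the replicate block, and 0 to 30 with a library left out. The cause was not tested. Of all genes, 18 of 16570 were higher and 4 lower with RLE size factors, and 79 of 25219 were higher and 16 lower without a filter. Relative to chromosome Mt, 8 passed in WT, but 5 with the sum of Mt counts as library size, 5 with TMM over Mt genes that are no partner and 4 with the replicate block, and 3 to 7 with a library left out. In otp90, 21 passed, and 12 to 22 with a library left out. For the genotypes in Mito relative to Mt, 4 passed, 1 with the sum of Mt counts and 0 to 7 with a library left out. With library size alone, the median log2 fold change over all genes moved to 0.48 (WT) and 0.47 (otp90), and AT2G07732 reversed in otp90, to 0.01 (adjusted p = 0.925, edgeR), and was -0.20 (adjusted p = 0.161) in WT. With the replicate block AT2G07732 in WT missed the threshold (adjusted p = 0.0777, edgeR). Replicate numbers paired the libraries by the check of deviations only in Mito, and the block moved no count other than those given here by over 1.5 times. With 5 added to each count, 22 pairs had a ratio span under 1.1, as with 0.5. With windows wholly inside exons, 109 members were mostly shared, in place of 124. The depth limits members at or under 1 CPM, which is 53 of 128.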
